A study of Mus musculus with 4 samples.

Results

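The receptor for thymic stromal lymphopoietin (TSLP) and the receptors that share the common gamma chain were followed in regulatory T (Treg) cells through 9 genes: Crlf2, Il7r, Il2ra, Il2rb, Il2rg, Il4ra, Il21r, Il15ra and Il9r. They are a family fixed by gene symbol, and all 9 were found among the 24418 genes listed, of which 13945 had a read. Treg cells were sorted from spleen and lymph nodes of Foxp3YFP-Cre mice, whose Foxp3 gene also drives a fusion of yellow fluorescent protein and Cre recombinase. The mice were sex-matched and 8 to 12 weeks old, and all groups carried this allele. The cells received 100 ng/mL TSLP or PBS alone for 3 h, and RNA of 2 libraries a group was sequenced (PBS 1, PBS 2, TSLP 1 and TSLP 2). Values of single libraries are given in this order of replicates. The labels name no mice, so it is not known whether the libraries of a group came from separate animals, and p-values measure only the spread between these libraries.

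TSLP is a cytokine of epithelial cells that binds a receptor made of TSLPR, the product of Crlf2, and the interleukin-7 (IL-7) receptor alpha chain, the product of Il7r. The same alpha chain pairs with the common gamma chain, the product of Il2rg, to form the receptor for IL-7, and the common gamma chain also serves the receptors for IL-2, IL-4, IL-9, IL-15 and IL-21. These chains have no kinase activity of their own and signal through JAK kinases to STAT factors. Treg cells are known for a high level of the IL-2 receptor alpha chain (CD25, from Il2ra) and for a lower level of the IL-7 receptor alpha chain than other CD4+ T cells.

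The added cytokine binds the products of Crlf2 and Il7r, so their promoters are shown, from 250 bases before to 50 bases after the RefSeq start (GRCm38.p6, minus strand for both, 5′ to 3′). That of Crlf2 is chr5:109558944-109559243 and that of Il7r is chr15:9529827-9530126. GENCODE places the outermost start of Il7r upstream of this window. Capitals mark TTCNNNGAA, the core that STAT5 is known to bind, which reads the same on both strands, and GGGCGG on either strand, the core of sites for SP1 factors. No marked match overlaps another.

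Crlf2: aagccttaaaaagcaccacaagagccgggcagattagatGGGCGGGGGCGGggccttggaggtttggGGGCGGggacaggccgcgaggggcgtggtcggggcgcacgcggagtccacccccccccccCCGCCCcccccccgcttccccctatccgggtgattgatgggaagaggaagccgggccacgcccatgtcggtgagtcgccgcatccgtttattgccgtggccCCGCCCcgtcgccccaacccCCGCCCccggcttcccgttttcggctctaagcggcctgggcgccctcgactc

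Il7r: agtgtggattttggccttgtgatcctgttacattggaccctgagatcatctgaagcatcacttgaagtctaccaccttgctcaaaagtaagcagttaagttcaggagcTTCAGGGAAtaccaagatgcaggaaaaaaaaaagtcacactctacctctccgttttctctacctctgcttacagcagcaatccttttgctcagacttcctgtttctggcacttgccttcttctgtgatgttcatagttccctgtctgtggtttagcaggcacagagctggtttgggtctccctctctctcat

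The Il7r window held TTCNNNGAA once, as TTCAGGGAA, with its first base at position -142 from the start. The Crlf2 window held none, but held GGGCGG 6 times. Of 32851 RefSeq promoters of this length, 8.30% held TTCNNNGAA and 35.7% held GGGCGG. G and C made up 71.7% of the Crlf2 window, with 31 CpG pairs, and 45.7% of the Il7r window, with 1 CpG pair, where the median promoter had 52.7% and 7 pairs. Promoters were found for 8 of the 9 genes, all but Il2rb, and TTCNNNGAA stood in none of the others. These matches describe the sequence and do not show that a factor was bound.

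The libraries held 11328132 (PBS 1), 10724392 (PBS 2), 11761234 (TSLP 1) and 10271571 (TSLP 2) reads on genes. The reads were recovered from the deposited values, in which the counts of each library stand divided by its size factor (normalized counts). To compare genes with one another, reads were divided by the length of all exons of a gene and by the reads of the library (RPKM), and reads scaled to the size of the library alone are given as CPM. A gene with no read could hold up to 3 reads, or 0.255 to 0.292 CPM, and this limit, like the intervals given for counts, covers counting error only.

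The sorted cells carried the RNA of Treg cells. The 8 Treg markers, which include Il2ra and also Cd4 and Cd3e, genes of all CD4+ T cells, summed to 4446, 4721, 4725 and 5106 CPM in PBS 1, PBS 2, TSLP 1 and TSLP 2, and the most abundant, Ctla4, an inhibitory receptor, averaged 1219 CPM. Foxp3, the factor that defines the lineage, had 222 and 472 CPM in PBS 1 and PBS 2, and 407 and 470 in TSLP 1 and TSLP 2. PBS 1 was thus the lowest of the libraries. In log2(normalized count + 1) it was 1.0 below the mean of the others, which lay within 0.17 of each other. The gamma-chain receptors are shared by many lymphocytes and the TSLP receptor by myeloid cells, so markers of such cells were read as well. The 8 myeloid and dendritic cell markers summed to 49.0, 39.5, 38.9 and 44.2 CPM in the 4 libraries, most of it from Cst3 with a mean of 34.6, and Adgre1 and Flt3 were at 0. The 3 B cell markers summed to 0.618, 10.4, 4.08 and 9.35 in the same order, with Cd79b the highest at a mean of 4.12. The 2 CD8 markers summed to 13.4, 7.83, 8.84 and 12, led by Cd8b1 with a mean of 8.73. The 3 markers of NK cells and innate lymphoid cells summed to 2.56, 3.82, 2.38 and 10.5, led by Eomes with a mean of 3.93, and Ncr1 was at 0. The 4 markers of mast cells and basophils (Fcer1a, Ms4a2, Cpa3 and Mcpt8) were at 0 in all 4 libraries. Genes preferred by conventional T cells, several of which Treg cells also express, summed to 1637, 1671, 1741 and 1708, led by Satb1 with a mean of 907. Before sequencing, CD4+ T cells of the Foxp3YFP-Cre mice, which carry the yellow fluorescent protein in Foxp3, had been enriched magnetically. They were labelled for CD4, and Treg cells were then gated and sorted on a cell sorter. The part of other cells in the receptor levels was not tested. In bulk RNA, fewer cells that express a gene and less RNA per cell cannot be told apart.

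Both genes of the TSLP receptor were read at similar length-scaled levels. Crlf2 (chr5:109554709-109558993 in mm10, minus strand) had 604 and 473 reads in PBS 1 and PBS 2, and 529 and 553 in TSLP 1 and TSLP 2, which came to 35.7, 29.5, 30.1 and 36.0 RPKM. The highest and the lowest PBS library thus enclosed TSLP 1, and PBS 1 and TSLP 2 were alike. With a mean of 32.8 ± 3.5 RPKM (SD, n = 4), Crlf2 stood at rank 1503 of the 13376 genes with a read and an exon length, higher than or equal to 88.8% of them. Il7r (chr15:9505788-9530176, minus strand) had 1621 and 2191 reads in PBS 1 and PBS 2, and 2223 and 1928 in TSLP 1 and TSLP 2, or 30.7, 43.8, 40.5 and 40.3 RPKM. PBS 1 was the lowest and PBS 2 the highest, with both TSLP libraries between them. The mean of Il7r was 38.8 ± 5.66 RPKM (SD, n = 4), at rank 1251. The ratio of Il7r to Crlf2 per length was 0.860 and 1.49 with PBS and 1.35 and 1.12 with TSLP. The order of both genes therefore turned in PBS 1 alone, and their means, 1.18-fold apart, did not differ beyond the spread of the libraries. Crlf2 has short exons, 1495 bases in all against 4663 for Il7r, and without the division by length Crlf2 ranked 4287 and Il7r 1332. Most of the distance between them in raw reads thus goes with length.

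The common gamma chain was the most abundant transcript of the family. Il2rg (chrX:101264378-101268255, minus strand) had 9975 and 7889 reads in PBS 1 and PBS 2, and 7550 and 7921 in TSLP 1 and TSLP 2, or 369, 308, 269 and 323 RPKM. PBS 1 was the highest and TSLP 1 the lowest library. Its mean of 317 ± 41.3 RPKM (SD, n = 4) put it at rank 74, and at ranks 56 to 86 in single libraries. Il2rg made up 30.1% to 38.6% of the summed length-scaled level of the 9 genes. Its exons overlap those of Gm20489, a gene annotated on the same strand and not listed separately in the values, so reads of both cannot be told apart.

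Per length, Il2rg exceeded each partner chain in all 4 libraries. The ratio of Il2rg to Crlf2 was 10.3, 10.4, 8.94 and 8.97 in PBS 1, PBS 2, TSLP 1 and TSLP 2. The TSLP receptor does not use the gamma chain, whereas Il7r serves both. The ratio to Il7r, with which it forms the IL-7 receptor, was 12, 7.03, 6.63 and 8.03. PBS 1 stood apart in this ratio, with Il7r lowest and Il2rg highest there. The ratio to Il2rb was 2.24, 1.78, 1.37 and 2.03, the smallest of the set. The ratios to Il4ra, from 2.02 to 3.37, and to Il21r, from 1.85 to 2.63, were of similar size.

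**Figure D1:**
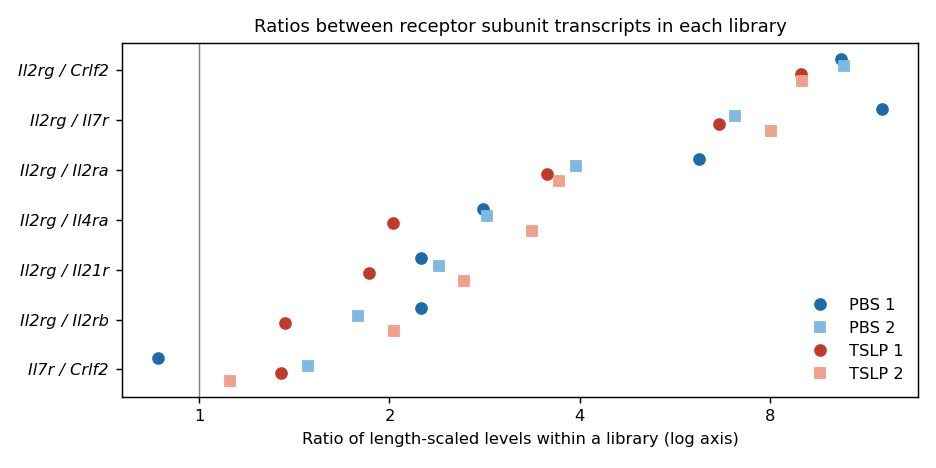
Ratios between the length-scaled RNA levels of receptor subunits within each library, on a log axis, with 1 point per library and a vertical line at a ratio of 1. Every ratio of Il2rg to a partner lies above 1, from 1.37 for Il2rb in TSLP 1 to 12 for Il7r in PBS 1, and the ratio of Il7r to Crlf2 falls below 1 in PBS 1 only.

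The other chains of the IL-2 receptor were Il2rb and Il2ra. Il2rb (chr15:78479256-78495271, minus strand), the beta chain shared with the IL-15 receptor, had 7998 and 7952 reads in PBS 1 and PBS 2, and 9931 and 7005 in TSLP 1 and TSLP 2, or 165, 173, 197 and 159 RPKM. Both TSLP libraries lay outside the PBS libraries, on opposite sides. Il2rb ranked 190 with a mean of 173 ± 16.7 RPKM (SD, n = 4). Il2ra (chr2:11642807-11693193, plus strand), the alpha chain that raises affinity for IL-2, had 3872 and 4782 reads in PBS 1 and PBS 2, and 5097 and 5113 in TSLP 1 and TSLP 2, or 59.9, 78.1, 75.9 and 87.2 RPKM. PBS 1 was the lowest and TSLP 2 the highest, and PBS 2 and TSLP 1 were alike. Il2ra ranked 540 with a mean of 75.2 ± 11.4 RPKM (SD, n = 4), so that the chain best known for Treg cells had less RNA per length than either signalling chain of the same receptor.

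Il4ra and Il21r, which carry the cytokine-specific chains of the IL-4 and IL-21 receptors, are neighbours on chromosome 7, with 23954 bases and no annotated gene between them. Il4ra (chr7:125552120-125579474, plus strand) had 8925 and 6956 reads in PBS 1 and PBS 2, and 9381 and 5918 in TSLP 1 and TSLP 2, or 131, 108, 133 and 96.0 RPKM. Il21r (chr7:125603429-125633570, plus strand) had 6193, 4587, 5672 and 4198 reads in the same order, or 164, 129, 145 and 123 RPKM. In both genes PBS 1 and TSLP 1 were the higher library of their group, and the groups overlapped. By their means they ranked 315 for Il4ra and 251 for Il21r. Exons of Il4ra overlap Gm44876, a gene on the opposite strand that is not listed in the values, and the strand setting of the counting is not given in the sources used here.

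The chains specific for IL-15 and IL-9 were in the lower part of the genes read. Il15ra, which presents IL-15, lies next to Il2ra on chromosome 2, 12096 bases away with no annotated gene between them (chr2:11705290-11734317, plus strand). It had 44 and 35 reads in PBS 1 and PBS 2, and 42 and 57 in TSLP 1 and TSLP 2, or 0.874, 0.734, 0.803 and 1.25 RPKM. The exact 95% Poisson intervals of these counts, from 24.4 to 48.7 in PBS 2 and from 43.2 to 73.9 in TSLP 2, overlapped. Il15ra ranked 9483, and Il2rb, its partner in the IL-15 receptor, was 127 to 245 times higher per length. Il9r (chr11:32187541-32200279, minus strand) had 28 and 165 reads in PBS 1 and PBS 2, and 96 and 95 in TSLP 1 and TSLP 2, or 0.5, 3.11, 1.65 and 1.87 RPKM. Here the PBS libraries were the lowest and the highest, with intervals of 18.6 to 40.5 and 141 to 192 reads that did not overlap. These intervals cover counting error only, and the cause of the gap was not tested. The TSLP libraries lay between the PBS libraries and differed by 1 read. Il9r ranked 8519, and 7500 to 9881 in single libraries.

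In the order of mean RPKM, Il2rg was followed by Il2rb, Il21r, Il4ra, Il2ra, Il7r, Crlf2, Il9r and Il15ra. Of the 8 steps in this order, those from Il2rg to Il2rb, Il4ra to Il2ra, Il2ra to Il7r and Crlf2 to Il9r separated all 4 libraries of one gene from all 4 of the next. The largest was the 18.4-fold step from Crlf2 to Il9r, and it was at least 9.49-fold within a library. Il2rb, Il21r and Il4ra kept their order in each library although their ranges overlapped, but in PBS 1 Il2rb and Il21r were 165 and 164 RPKM, hardly apart. The order of Il7r and Crlf2 and that of Il9r and Il15ra each held in 3 of 4 libraries. The order also depends on the length used. With the longest annotated transcript, Il21r (rank 258) stood above Il2rb (rank 276). Without division by length, Il4ra (rank 181) stood above Il21r (rank 358).

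Among 25 cytokine receptor genes, made up of these 9 and 16 others, Il2rg, Il2rb, Il21r, Il4ra and Il2ra took places 2 to 6. The place above them was held by Ifngr1, a chain of the interferon-gamma receptor, with a mean of 318 ± 40.1 RPKM (SD, n = 4), which did not differ from that of Il2rg beyond the spread of the libraries. Il7r and Crlf2 took places 9 and 11. Il1rl1, the receptor of the epithelial cytokine IL-33, stood beside them with 33.7, 42.4, 42.7 and 45.3 RPKM in PBS 1, PBS 2, TSLP 1 and TSLP 2, and Il17rb, a chain of the receptor of the epithelial cytokine IL-25, was far lower with 0.262, 0.654, 0.986 and 0.263. Csf2rb, the beta chain shared by the receptors for IL-3, IL-5 and GM-CSF in myeloid cells, was the lowest of the 25 with a mean of 0.0887 RPKM.

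**Figure D2:**
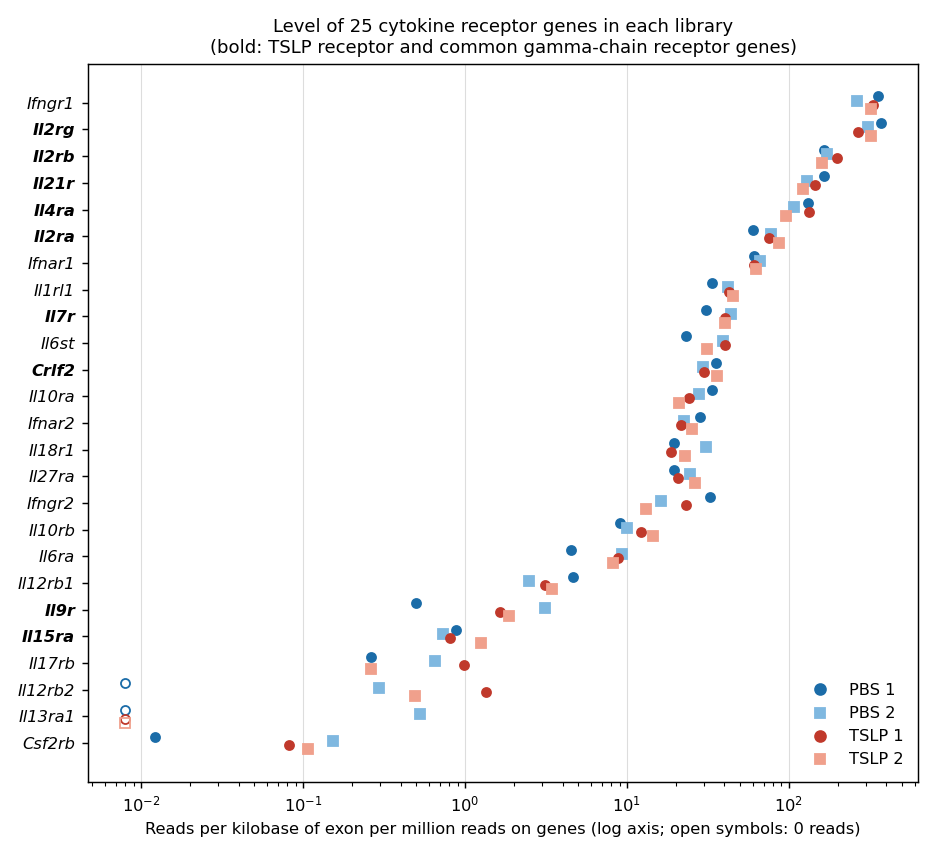
Length-scaled RNA level (RPKM, log axis) of 25 cytokine receptor genes, ordered by their mean, with 1 point per library, open symbols for 0 reads and the 9 receptor genes described here in bold. Il2rg, Il2rb, Il21r, Il4ra and Il2ra form the top with Ifngr1, Il7r and Crlf2 lie near 30 to 44 RPKM, and Il9r and Il15ra lie at or below 3.11 RPKM.

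The comparison of the groups asked whether TSLP changed the RNA of its own receptor or of the related receptors within 3 h. All 9 genes passed the filter on low counts. By limma on log2(normalized count + 1), 0 of the 9 genes had a p under 0.05, adjusted or not. Across the 11392 genes tested, 1.69% had an unadjusted p under 0.05 and 0% an adjusted p under 0.05 (Benjamini-Hochberg), where edgeR and DESeq2 also gave 0 genes with 234 unadjusted each. The adjusted p was 1.0 for all 9. Of the log2 fold changes of TSLP against PBS, 6 were above 0 and 3 below, with a median of 0.08, where the median of all genes tested was 0.01. Over the alternative fits the median of the 9 ranged from 0.021 to 0.17, and on leaving out a library the sign changed in 6 genes. In 1 of the 9 genes, Il2ra, both TSLP libraries exceeded both PBS libraries in normalized counts, as was found in 14.5% of all genes tested, but not in CPM, where PBS 2 (446) lay above TSLP 1 (433). In 0 of the 9 both lay below, as was found in 14.4%. With 2 libraries against 2, an exact permutation test of a single gene cannot go below a two-sided p of 0.333.

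For both genes of the TSLP receptor the difference between group means was smaller than that between the PBS libraries. The normalized count of Crlf2 averaged 529 ± 79.3 in the PBS libraries and 538 ± 56.3 in the TSLP libraries (SD, n = 2 each). The log2 fold change was 0.03, with a 95% interval of -0.59 to 0.64 that covers a level from 0.666 to 1.56 times that with PBS. That of Il7r averaged 1882 ± 439 in the PBS libraries and 2055 ± 56.1 in the TSLP libraries (SD, n = 2 each), and its log2 fold change was 0.15, with an interval of -0.39 to 0.68. The PBS libraries of Il7r stood at 1571 and 2192 and its TSLP libraries at 2094 and 2015, closer together than the group means.

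Il2ra came closest to a difference, with normalized counts of 3753 (PBS 1), 4784 (PBS 2), 4802 (TSLP 1) and 5343 (TSLP 2). On this scale PBS 2 lay just below TSLP 1, by less than the replicates of either group differed, and in CPM and RPKM the groups overlapped. The log2 fold change was 0.26 (standard error 0.23, 95% interval -0.26 to 0.78, unadjusted p = 0.291 and adjusted p = 1.0 by limma). Without PBS 2 it was 0.43 at an unadjusted p of 0.0376, but 16.3% of all genes tested had an unadjusted p under 0.05 in that fit, against 1.69% with all libraries. Il2rg lay on the other side, at 9668 (PBS 1), 7893 (PBS 2), 7113 (TSLP 1) and 8278 (TSLP 2) normalized counts. Its TSLP libraries enclosed PBS 2, and its log2 fold change was -0.19 (interval -0.73 to 0.36, unadjusted p = 0.456). Il2rb had 7752, 7956, 9356 and 7321 normalized counts in the order PBS 1, PBS 2, TSLP 1 and TSLP 2, and a log2 fold change of 0.08 with an interval of -0.46 to 0.62.

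Il4ra had normalized counts of 8651 (PBS 1), 6960 (PBS 2), 8838 (TSLP 1) and 6185 (TSLP 2), and a log2 fold change of -0.07 with an interval of -0.66 to 0.53. Il21r had 6003, 4589, 5343 and 4387 in the same order, and a log2 fold change of -0.12 with an interval of -0.66 to 0.43. In neither gene did the groups separate. Over the 7 genes with many reads, the intervals spanned -0.73 to 0.78, and these libraries do not resolve differences of that size or less in either direction. For Il15ra and Il9r the limit was wider. Il15ra had a log2 fold change of 0.32 with an interval of -1.36 to 2.0, and Il9r one of 0.49 with an interval of -1.36 to 2.33. The mean normalized count of Il9r was 96.1 ± 97.5 for PBS and 94.9 ± 6.25 for TSLP (SD, n = 2 each), so the fitted value above 0 comes from the log scale, on which PBS 1 weighs more. Its log2 fold change was -0.79 without PBS 1 and 1.77 without PBS 2.

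**Figure D3:**
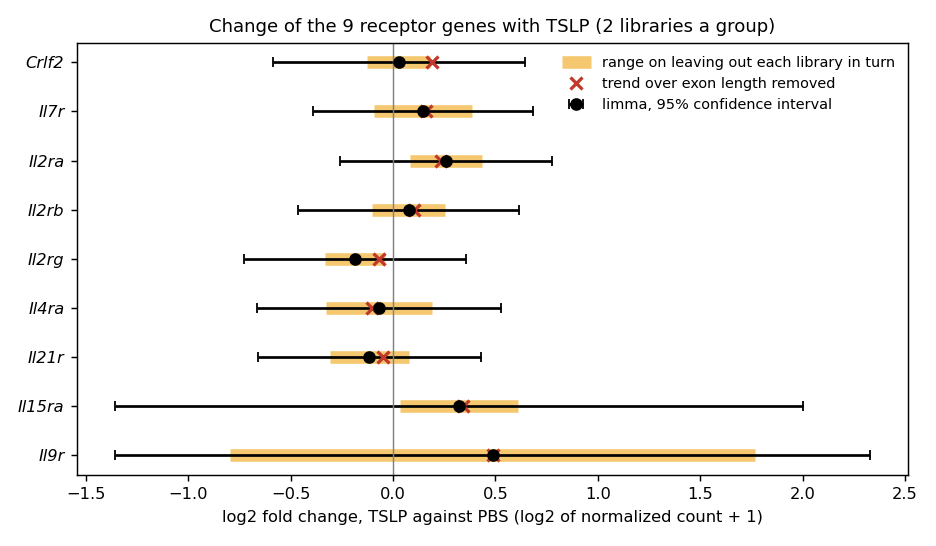
Log2 fold change of the 9 receptor genes, TSLP against PBS, with its 95% confidence interval by limma (black), the range on leaving out each library in turn (orange) and the value after removal of the trend over exon length (red crosses). All intervals include 0, and they are widest for Il15ra and Il9r, which had at most 165 reads in a library.

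Libraries of a group differed among themselves, and the receptor genes took part in this. PBS 1 was below the other 3 libraries in Il7r by 0.42, in Il2ra by 0.41 and in Il9r by 2.03, measured as log2(normalized count + 1) against the mean of the others. It was above all of them in Crlf2, by 0.19, in Il2rg, by 0.32, and in Il21r, by 0.34. It stood within the range of the others in Il2rb, Il4ra and Il15ra. For Il7r and Il2ra the other 3 libraries were close together, within 0.12 and 0.16. PBS 1 was also the lowest library in Foxp3 and the highest in Klf2, which keeps T cells in circulation, by 0.86. Of the 8 Treg markers, Foxp3, Ikzf2, Il2ra, Cd4 and Cd3e were lowest in PBS 1, but Ctla4, Tnfrsf4 and Tnfrsf18 were highest there, with Tnfrsf4 at 755 CPM against 498, 568 and 643. Foxp3 is known to act on Il7r and Il2ra in Treg cells, but the part of these differences in the receptor levels was not tested. The log2 gap between replicates of a group was 0.48 for PBS and 0.31 for TSLP at the median of all genes tested. Among the 9 genes, the PBS gap was wider than that median in Il9r, by far, and equal to it to 2 decimals in Il7r, while in the TSLP group it was wider in Il2rb, Il4ra and Il15ra.

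**Figure D4:**
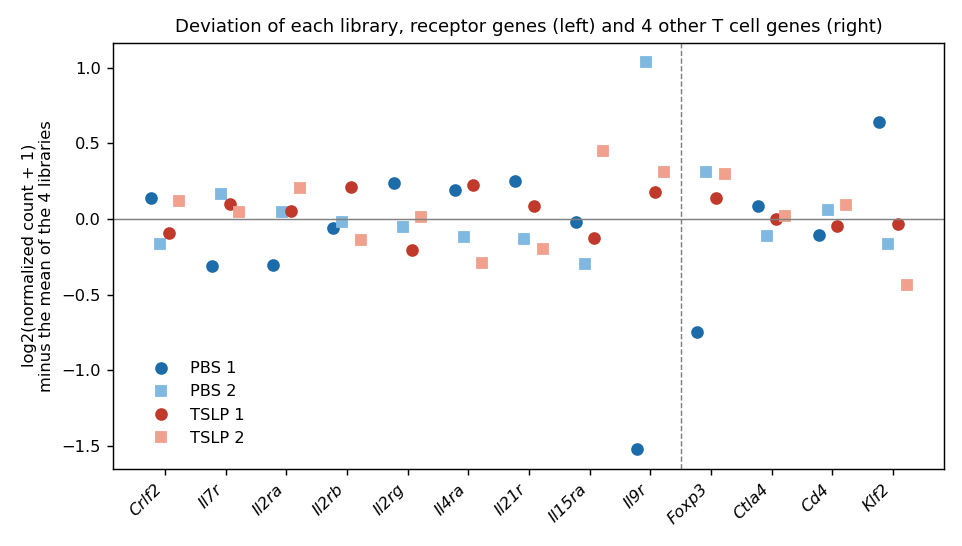
Deviation of each library from the mean of the 4 libraries, in log2(normalized count + 1), for the 9 receptor genes (left of the dashed line) and for Foxp3, Ctla4, Cd4 and Klf2 (right), with 1 point per library. PBS 1 is the lowest point in Il7r, Il2ra, Il9r, Foxp3 and Cd4 and the highest in Crlf2, Il2rg, Il21r, Ctla4 and Klf2.

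The length of genes moved with the libraries. Over 2679 genes with many reads, the log2 ratio of a library to the mean of the others correlated with exon length. Spearman rho was -0.657 and 0.569 for PBS 1 and PBS 2, and 0.399 and 0.303 for TSLP 1 and TSLP 2. These correlations run across genes, which are not independent replicates. Nor are the values of the libraries independent of each other, as PBS 1 is part of the mean that PBS 2, TSLP 1 and TSLP 2 were set against. Crlf2 and Il2rg, with 1495 and 2387 bases of exon, are the shortest of the 9 genes and had their highest normalized count in PBS 1, whereas Il7r and Il2ra, with 4663 and 5711 bases, were lowest there. Il21r, with 3324 bases, was likewise highest in PBS 1 and Il9r, with 4947 bases, lowest. Il4ra, the longest with 6002 bases, was 0.26 above the mean of the others in PBS 1, though within their range, as were Il2rb and Il15ra with 4287 and 4446 bases. The part of length in the receptor levels was not tested beyond the removal of this trend. After removal of this trend, the log2 fold change of Crlf2 was 0.19 in place of 0.03 and that of Il2rg was -0.07 in place of -0.19. Il21r had -0.05 in place of -0.12 and Il4ra -0.10 in place of -0.07. The values of the other 5 genes moved less, to 0.16 for Il7r, 0.23 for Il2ra, 0.10 for Il2rb, 0.34 for Il15ra and 0.49 for Il9r.

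Crlf2 and Il7r each had a near match among the other genes. Over the 4 libraries, in log2(RPKM + 0.1), the genes at the smallest Euclidean distance from Crlf2 were Kdm1a (0.122), Mak16 (0.137) and Arrb2 (0.147). Those nearest to Il7r were Trip12 (0.0782), Ctcf (0.151) and Caprin1 (0.161). Kdm1a, which encodes a histone demethylase, had 33.4, 29.6, 30.4 and 38.0 RPKM in PBS 1, PBS 2, TSLP 1 and TSLP 2, low in the same libraries as Crlf2. Trip12, which encodes a ubiquitin ligase, had 30.4, 44.5, 42.2 and 41.6, lowest in PBS 1 as Il7r was. With 4 libraries such likeness describes level and library differences alike.

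The cytokines that these receptors bind were scarcely read in the sorted cells. Tslp, Il7, Il9 and Il15 had 0 reads in all 4 libraries. Il2 had 16 and 5 reads in PBS 1 and PBS 2, and 2 and 23 in TSLP 1 and TSLP 2, and Il4 had 23, 0, 4 and 13, so the groups overlapped. Il21 had 21 reads in TSLP 1 and 0 in the others. Il13, whose product shares the IL-4 receptor alpha chain, had 0 reads in both PBS libraries, 25 in TSLP 1 and 29 in TSLP 2. It passed the filter on low counts only through the TSLP libraries, so that it had to differ to be tested, and its reads are given as a description, with no p and no fold.

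Downstream of the receptors, 9 genes of JAK kinases and STAT factors were tested, of which 5 had a log2 fold change above 0 and 4 below, with a median of 0.04 and 0 genes at an unadjusted p under 0.05. Jak1, whose kinase binds the IL-7 receptor alpha chain, and Jak2, whose kinase binds TSLPR, had log2 fold changes of 0.21 and 0.17. That of Jak3, whose kinase binds the common gamma chain, was -0.19. Those of Stat5a and Stat5b, the STAT factors best known for these receptors, were -0.04 and -0.01. The lowest p of the list, 0.218, was that of Tyk2, with 731 normalized counts in PBS 1 and 1365, 1307 and 1336 in PBS 2, TSLP 1 and TSLP 2. PBS 1 alone stood apart there.

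Of 8 known STAT5 targets and feedback genes, 3 had a log2 fold change above 0 and 5 below, with a median of -0.04. In this list 1 gene of 8 had an unadjusted p under 0.05, as had 1.69% of all genes tested. It was Ccnd2, which encodes cyclin D2. It had 2475 and 2693 normalized counts in PBS 1 and PBS 2, and 3740 and 3561 in TSLP 1 and TSLP 2. Both TSLP libraries were above both PBS libraries, by more than the replicates differed. In normalized counts, both TSLP libraries were above both PBS libraries in 3 of the 8 genes, also in Bcl2 and Osm. This was found in 14.5% of all genes tested, whatever the gap between replicates. The log2 fold change of Ccnd2 was 0.50 (standard error 0.21, unadjusted p = 0.0411, adjusted p = 1.0 by limma), and over 14 alternative fits its unadjusted p ranged from 0.0137 to 0.218 and was under 0.05 in 8. Cish, an inhibitor of signalling that STAT5 induces, had 4223, 2719, 3813 and 2800 normalized counts in PBS 1, PBS 2, TSLP 1 and TSLP 2. Its groups overlapped, with PBS 1 and TSLP 1 the higher library of each, and its log2 fold change was -0.05. Socs2, another feedback inhibitor, had 651, 283, 322 and 338 in the same order, and was high in PBS 1 only.

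Among 8 regulators known to act on Il7r or Il2ra, 5 log2 fold changes were above 0 and 3 below, with a median of 0.11, and 0 had an unadjusted p under 0.05. Foxo1, an activator of Il7r, had 9306, 8590, 9641 and 7741 normalized counts in PBS 1, PBS 2, TSLP 1 and TSLP 2, and the groups overlapped. Gabpa, whose product also activates Il7r, had 544, 900, 929 and 1036, with PBS 1 apart from the other 3 libraries as in Il7r. Its log2 fold change was 0.49 at an unadjusted p of 0.127. That of Foxp3 was 0.44 at an unadjusted p of 0.211, with PBS 1 again the low library.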

How the data were processed

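Libraries of sorted Treg cells were prepared with a directional RNA kit and sequenced in single-end mode with 50 bases. The authors used Hisat2 to map reads to mm10 and HTSeq to count them on genes. They deposited a signal: counts after division by DESeq2 size factors, with no filter. The gene models and the strand setting of the counting are not given in the sources used here. Rescaling turned 100% of the values of each library into whole reads (tolerance 0.01). The size factor of PBS 2 (0.999) is so close to 1 that this check cannot show its whole reads by itself. The names of 27 genes had turned into dates.

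Normalized counts were compared with limma 3.58.1 (moderated statistics with a mean-variance trend, R 4.3.3) after adding 1 and taking log2, for the 11392 genes that reached 10 normalized counts in 2 or more libraries, with Benjamini-Hochberg adjustment of p-values. The added count shrinks fold changes of poorly read genes. Alternatives were edgeR 4.0.16 (quasi-likelihood, TMM) and DESeq2 1.42.0 on recovered reads, TMM scaling in limma, no filter or one at 50, pseudocounts of 0.5 and 5, blocking on the replicate number, a correction for exon length (lowess, span 0.5) and leaving out each library. The fits were also run on simulated counts, with the same dispersion for all genes and no library set apart from the others. That setting differs from these libraries, so the run does not show which differences could be found here. Exon lengths and positions came from GENCODE M21 (GRCm38), in which 23307 names had a single exon length, and promoters from RefSeq.

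The 9 genes, the gene lists and the markers were chosen with earlier results of these data known. Named are the 9 genes, members of the lists (those with an unadjusted p under 0.05 always, others as examples chosen after their values were seen), the 3 genes nearest to Crlf2 and to Il7r, and cell type markers.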

Additional observations from a re-analysis of the deposited data

How the results depend on the processing

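The number of genes at an adjusted p under 0.05 was 0 in the 14 alternative fits as well. The number at an unadjusted p under 0.05, 192 by limma, was 358 without a filter on low counts and 79 to 1858 on leaving out each library, the highest without PBS 2. The number of receptor genes at an unadjusted p under 0.05 was 0 in all alternatives except without PBS 2, where it was 2 (Il2ra at 0.43 and Il9r at 1.77), so that it ranged from 0 to 2 on leaving out a library. A lone library was then assumed to vary like the other group. The median log2 fold change of the receptor genes, 0.08, was 0.021 with edgeR, 0.023 with DESeq2, 0.16 after removal of the length trend, and 0.077 to 0.17 on leaving out each library. The log2 fold change of Il9r was -0.020 with edgeR and -0.019 with DESeq2. On leaving out a library the sign changed in 6 genes. The values ranged from -0.13 to 0.18 for Crlf2 (below 0 without PBS 2 or TSLP 2), from -0.094 to 0.39 for Il7r (below 0 without PBS 1), from -0.10 to 0.25 for Il2rb (below 0 without TSLP 1), from -0.33 to 0.19 for Il4ra and from -0.31 to 0.077 for Il21r (both above 0 without PBS 1 or TSLP 2), and from -0.79 to 1.77 for Il9r (below 0 without PBS 1). None of the values that changed sign had an unadjusted p under 0.05, and the cause was not tested. The other 112 alternative log2 fold changes of receptor genes kept their sign and their side of 0.05, and Il15ra could not be tested at a filter of 50. With the replicate number as a block, 258 genes had an unadjusted p under 0.05 in limma and 215 in edgeR, with 0 of the receptor genes among them and 0 genes at an adjusted p under 0.05. The labels do not say whether the replicate numbers pair the libraries, and the main fit did not take them to do so. The correlation of the replicate differences of both groups was 0.00072 over 11392 genes and 0.0931 over 2716 genes with many reads. It cannot decide on a pairing, as the PBS difference holds all that set PBS 1 apart from the other libraries. For its quantitative PCR of Treg cells treated in this way, the paper used a paired t-test. Ccnd2 lost its unadjusted p under 0.05 with edgeR, with the block, after removal of the length trend and without either TSLP library, with log2 fold changes of 0.37 after that removal and of 0.46 to 0.53 in the others. Of 54 alternative ranks, 35 stayed within 1 SD of the libraries' ranks, and the lowest of Crlf2 was 4287, without division by length.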

Other observations

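Among the 16 other cytokine receptor genes, 14 were tested, with 8 log2 fold changes above 0 and 6 below, a median of 0.10 and 0 genes at an unadjusted p under 0.05. Il12rb2, the signalling chain of the IL-12 receptor, had the lowest p, 0.0866, with 0 and 12 reads in PBS 1 and PBS 2, and 60 and 19 in TSLP 1 and TSLP 2. Its libraries of 1 group were thus further apart than the nearest libraries of different groups. The chains of the IL-10 receptor lay on opposite sides. Il10ra, which binds IL-10, had a log2 fold change of -0.44 (interval -0.98 to 0.11, unadjusted p = 0.105), with both TSLP libraries below both PBS libraries in normalized counts, as in 14.4% of all genes tested. Il10rb, its partner chain, had one of 0.48 (interval -0.14 to 1.10, unadjusted p = 0.112), with both TSLP libraries above, as in 14.5%. Il12rb2 and Il1rl1 also had both TSLP libraries above. The groups thus did not overlap in 4 of the 14 genes (28.6%), with Il12rb2 included despite its passage through the filter. This count pools both directions, and over all genes tested the shares of both directions, 14.5% above and 14.4% below, likewise add up. Il10ra and Il10rb had an adjusted p of 1.0 by limma.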
